A study of Mus musculus with 2 samples.

Results

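AP-1 is a transcription factor made of a Fos family protein and a Jun family protein, or of a pair of Jun proteins, joined through their leucine zippers and bound to DNA through the basic region beside it. The 7 genes described here are its core subunits: Fos, Fosb, Fosl1 and Fosl2 of the Fos family, and Jun, Junb and Jund of the Jun family. They were taken by symbol, and all 7 are among the 32285 genes of both count matrices. The set was chosen by its UMIs (unique molecular identifiers, each standing for 1 captured RNA molecule) in these libraries, since earlier results of these data had already shown more Fos UMIs in the knockout library, so the differences between libraries given here describe the members and carry no test.

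Single-nucleus RNA sequencing was run on colon of 15-week-old male C57BL/6 mice. One library came from Pink1 knockout (KO) mice and the other from wild-type (WT) littermates, and each was made from the pooled sorted nuclei of 3 mice. The knockout library is labelled batch 2 and the WT library batch 1, so genotype, batch and library cannot be told apart, and the spread between mice is unknown. The colons were flushed, opened and minced, nuclei were freed with detergent and a Dounce homogeniser, and SYTOX Green-positive nuclei were sorted into cold methanol. The allele is named only as a knockout, with the deleted exons not given in the sources used here.

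After filtering, 10966 Pink1 KO nuclei and 8256 WT nuclei were kept, with 18539112 and 15077042 UMIs of nuclear-encoded genes. The median nucleus held 1571 UMIs in the Pink1 KO library and 1624.5 in the WT library, and mitochondrial genes made up 0.525% and 0.270% of UMIs. Levels below are the UMIs of a gene in a class over all nuclear-encoded UMIs of the same nuclei, scaled to the usual CPM, and every ratio is Pink1 KO over WT with a 95% interval that covers counting error only. Pink1 itself, which encodes a mitochondrial kinase, had 113 UMIs (6.1 CPM) in the Pink1 KO library and 171 UMIs (11.3 CPM) in the WT library, a ratio of 0.537 (0.420 to 0.686). A 3′ tag outside the deleted part of an allele checks nothing, so this value does not check the labels. The nuclei fell into 29 clusters, of which those with enough defining markers were named as "-like" classes. Clusters 9, 3, 6 and 4 stayed unnamed: cluster 9 was led by Gsdmc3 and Gk, cluster 3 by Apol10a and Aqp4, cluster 6 by Fut9 and Nxpe4, and cluster 4 by the non-coding RNAs Meg3 and Rian. Immediate early genes were left out of the genes that defined clusters, so the members were not used to form the classes. The cluster listed as pericyte-like was led by Sfrp4, Kcnn3 and Rgs5, of which only Rgs5 is a classical pericyte marker.

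Most AP-1 genes are immediate early genes, which are transcribed within minutes of a growth factor, cytokine or stress signal through kinases acting on factors already bound to their promoters. The mRNAs of Fos, Fosb, Jun and Junb carry AU-rich elements and are short-lived, while Jund is made more steadily in many cells. Fos proteins cannot pair with themselves and need a Jun partner, and AP-1 binds the element TGACTCA and, with partners of the ATF family, the longer TGACGTCA. In the gut, AP-1 is known for roles in epithelial proliferation and repair and in the response of fibroblasts and macrophages to cytokines.

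The promoters of Fos, Fosb, Jun and Junb are shown because these 4 members had the highest ratios over all nuclei. Each line is the 250 bases before the transcription start in RefSeq on GRCm38.p6, read 5′ to 3′ on the gene's own strand: chr12:85473640-85473889 (plus strand) for Fos, chr7:19310046-19310295 (minus strand) for Fosb, chr4:95052223-95052472 (minus strand) for Jun and chr8:84978749-84978998 (minus strand) for Junb. Capitals mark TGACG, the core of the cyclic AMP response element bound by CREB and ATF proteins, TGACATCA, a variant bound by Jun with ATF2, and TATAAA.
Fos: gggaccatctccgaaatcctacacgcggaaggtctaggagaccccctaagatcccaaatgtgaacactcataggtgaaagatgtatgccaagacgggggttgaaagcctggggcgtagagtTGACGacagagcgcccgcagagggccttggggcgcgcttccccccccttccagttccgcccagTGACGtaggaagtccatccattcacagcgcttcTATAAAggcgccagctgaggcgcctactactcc
Fosb: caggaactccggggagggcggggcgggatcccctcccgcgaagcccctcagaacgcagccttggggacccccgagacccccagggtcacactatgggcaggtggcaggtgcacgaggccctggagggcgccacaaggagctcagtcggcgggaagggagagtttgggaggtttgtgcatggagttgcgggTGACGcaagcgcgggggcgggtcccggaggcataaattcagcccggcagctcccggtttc
Jun: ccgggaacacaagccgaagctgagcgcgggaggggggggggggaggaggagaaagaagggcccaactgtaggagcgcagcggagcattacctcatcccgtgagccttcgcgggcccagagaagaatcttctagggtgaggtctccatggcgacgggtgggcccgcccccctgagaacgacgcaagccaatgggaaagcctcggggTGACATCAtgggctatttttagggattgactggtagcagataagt
Junb: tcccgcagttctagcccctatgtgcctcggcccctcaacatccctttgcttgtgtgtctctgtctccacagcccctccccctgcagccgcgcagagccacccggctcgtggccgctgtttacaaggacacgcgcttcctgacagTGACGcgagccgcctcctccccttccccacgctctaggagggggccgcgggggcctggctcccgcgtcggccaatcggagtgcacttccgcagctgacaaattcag

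In the Fos window TGACG lay 129 to 125 and 66 to 62 bases before the start and TATAAA 33 to 28 bases before it. In the Fosb window TGACG lay 60 to 56 bases before the start, and in the Junb window 106 to 102 bases before it. The Jun window held TGACATCA 45 to 38 bases before the start. Both strands were searched, and TGACGTCA contains TGACG. Over 32851 RefSeq windows of this length, TGACG was in 17.8%, TATAAA in 12.4% and TGACATCA in 2.93%. Among the 6 members with a window, TGACG was in 3, TATAAA in 1 and TGACATCA in 1. The letters TGACTCA (4.46% of all windows) and TGACGTCA (1.55%) were in none of the 6 windows, and the GC box GGGCGG (32.7% of all windows) was in 4. The windows follow RefSeq starts, which can differ from the gene coordinates given below. The Jund window, chr8:70697489-70697738, does not adjoin the Jund gene listed there. The Fosl2 window, chr5:32136222-32136471, lies inside the listed Fosl2 gene. These matches describe letters and not bound sites.

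On GRCm38, Fos lies at chr12:85473890-85477273 on the plus strand with 4 exons. Fosb lies at chr7:19302696-19310051 on the minus strand, Fosl1 at chr19:5447547-5455946 on the plus strand and Fosl2 at chr5:32135801-32157842 on the plus strand. Jun, at chr4:95049034-95052222 on the minus strand, is a single exon of 3189 bases, and so is Jund a single exon, at chr8:70698949-70700616 on the plus strand. Junb lies at chr8:84974484-84978718 on the minus strand. Jun, Junb, Jund and Fosl1 each overlap a gene on the opposite strand, and the use of strand in counting was not given in the sources used here. Of these neighbours, Junos (over Jun) had 71 UMIs in the Pink1 KO library and 62 in the WT library, a ratio of 0.931 (0.653 to 1.33). Prdx2 (over Junb) had 557 and 528 UMIs, a ratio of 0.858 (0.760 to 0.968). Ccdc85b (over Fosl1) had 210 and 193 UMIs, a ratio of 0.885 (0.724 to 1.08). Gm11175 (over Jund) had 7 and 7 UMIs, a ratio of 0.813 (0.243 to 2.72). Only the interval of Prdx2 left out 1. Whether UMIs of a member include RNA of its neighbour was not tested.

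Over all nuclei, 5 of the 6 members with at least 50 UMIs were at least 1.5-fold higher in the Pink1 KO library, and none was 1.5-fold lower. Of all 14619 genes with as many UMIs, 5.24% were that much higher and 5.81% that much lower, and the members were chosen with this contrast known, so nothing is read from their count. The summed level of the 7 members was 1292 CPM in Pink1 KO nuclei and 497 CPM in WT nuclei, a ratio of 2.60 (2.53 to 2.67). The members differed widely among themselves, and the makeup of AP-1 RNA differed with them. Fos made up 37.5% of the 7 members' UMIs in the Pink1 KO library and 12.3% in the WT library. Fosl2 made up 16.2% and 33.4%, Jund 15.7% and 24.4%, Jun 11.8% and 14.3%, and Junb 17.6% and 14.9%. Over all nuclei, Fos thus held the most UMIs of the 7 in the Pink1 KO library. Fosl2 held the most in the WT library, as 3′ tag counts. The leading member differed by class. In Pink1 KO fibroblast-like nuclei Junb (23.7%) and Jun (23.4%) stood above Fos (18.3%), whereas Fos led in Pink1 KO colonocyte-like nuclei (39.4%). In WT goblet-like nuclei Jund (34.1%) stood above Fosl2 (26.3%), whereas Fosl2 led in WT colonocyte-like nuclei (36.8%).

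Fos, whose protein gives AP-1 with Jun partners strong transactivation, had 8985 UMIs (485 CPM) in the Pink1 KO library and 918 UMIs (60.9 CPM) in the WT library, a ratio of 7.96 (7.44 to 8.53). At least 1 Fos UMI was seen in 39.6% of Pink1 KO nuclei (exact binomial interval 38.7 to 40.5) and in 7.46% of WT nuclei (6.90 to 8.05). With every nucleus thinned to 500 UMIs the shares were 18.0% and 2.86%. Nuclei with Fos also held more of it: the mean was 2.07 UMIs in Pink1 KO and 1.49 in WT Fos-positive nuclei, and the highest nucleus held 17 and 12. The difference was thus one of many nuclei, and the 1% of nuclei with most Fos held 10.1% of Fos UMIs in the Pink1 KO library and 32.7% in the WT library.

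Colonocyte-like nuclei, the absorptive cells of the surface, had the highest Fos level in both libraries, at 804 CPM in Pink1 KO and 183 CPM in WT, and stood apart from the next class in each; levels were ranked in each library among the 17 classes with at least 50 of its nuclei. Their ratio of 4.40 (3.95 to 4.91) was nevertheless the lowest among the classes with at least 100 nuclei per library. In the Pink1 KO library the unnamed cluster 9 came next at 680 CPM, also apart from the rest, and the levels from 511 CPM in macrophage and dendritic-like nuclei through 502 CPM in cluster 3 to 452 CPM in cluster 6 and 448 CPM in goblet-like nuclei overlapped from neighbour to neighbour. In the WT library cluster 3 came next at 81.6 CPM, followed by cluster 9 at 53.9 CPM and goblet-like nuclei at 53.7 CPM, with overlapping neighbours from there on.

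The Fos ratio, which has the WT level below the line, was mostly higher where the WT level was low. Cluster 4, which expressed the goblet cell mucin gene Muc2 at 18452 CPM in Pink1 KO and 20018 CPM in WT nuclei, had 369 and 9.34 CPM of Fos, a ratio of 39.5 (17.9 to 109) that rests on 6 WT UMIs. Cluster 6 had 452 CPM in Pink1 KO and 21.5 CPM in WT nuclei, a ratio of 21.0 (13.3 to 35.2), and cluster 9 had a ratio of 12.6 (10.3 to 15.7). Crypt-base and proliferating-like nuclei had 309 CPM in Pink1 KO and 28.9 CPM in WT, a ratio of 10.7 (8.51 to 13.6), and goblet-like nuclei 448 and 53.7 CPM, a ratio of 8.34 (7.17 to 9.75). Cluster 3 had 502 and 81.6 CPM, a ratio of 6.15 (4.87 to 7.86).

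Outside the epithelium, Fos was higher in Pink1 KO than in WT fibroblast-like, smooth muscle-like, macrophage and dendritic-like and blood endothelium-like nuclei, but the WT counts behind it were small. Fibroblast-like nuclei had 356 Fos UMIs (326 CPM) in Pink1 KO and 13 UMIs (20.4 CPM) in WT, a ratio of 16.0 (9.22 to 30.3). Smooth muscle-like nuclei had 319 UMIs (420 CPM) and 12 UMIs (27.1 CPM), a ratio of 15.5 (8.74 to 30.3) that was 10.3 without doublet removal. Macrophage and dendritic-like nuclei had 169 UMIs (511 CPM) in Pink1 KO and 5 UMIs (21.1 CPM) in WT, a ratio of 24.2 (10.2 to 75.5). With so few WT UMIs that ratio was 9.66 with a stricter filter on nuclei, 13.3 without doublet removal, 38.1 with a looser filter and 41.1 in thinned nuclei. In each of these 3 classes Fos was higher in Pink1 KO in every setting that gave a value.

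In the smaller classes, blood endothelium-like nuclei had 61 Fos UMIs in Pink1 KO and 1 in WT, a ratio of 31.5 (5.45 to 1265), and lymphatic endothelium-like nuclei 17 and 1, a ratio of 12.6 (1.98 to 527). The WT levels behind these ratios, 12.4 and 9.33 CPM, lay under the 18.8 and 19.8 CPM that free RNA would give by the Muc2 measure described further on. Enteroendocrine-like nuclei, the hormone-producing cells, had 59 and 5 UMIs, a ratio of 8.98 (3.64 to 28.7), and enteric glia-like nuclei 29 and 7, a ratio of 3.40 (1.46 to 9.20). B-like nuclei had 16 UMIs in Pink1 KO and 0 in WT, and the exact interval of the ratio began at 11.2. Those 16 UMIs came from 6 nuclei, 1 of which held 37.5% of them. T and innate lymphoid-like nuclei had 5 and 0 UMIs, an interval that began at 1.07. Their Pink1 KO level cannot be told apart from free RNA by the Muc2 measure. Plasma-like nuclei (21 and 4 UMIs, ratio 2.82, 0.951 to 11.3) and tuft-like nuclei (8 and 3 UMIs, ratio 2.23, 0.534 to 13) had intervals that included 1. The class led by Sfrp4, Kcnn3 and Rgs5 had 44 and 4 UMIs, a ratio of 6.09 (2.22 to 23.4), and enteric neuron-like nuclei 3 and 1.

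**Figure D1:**
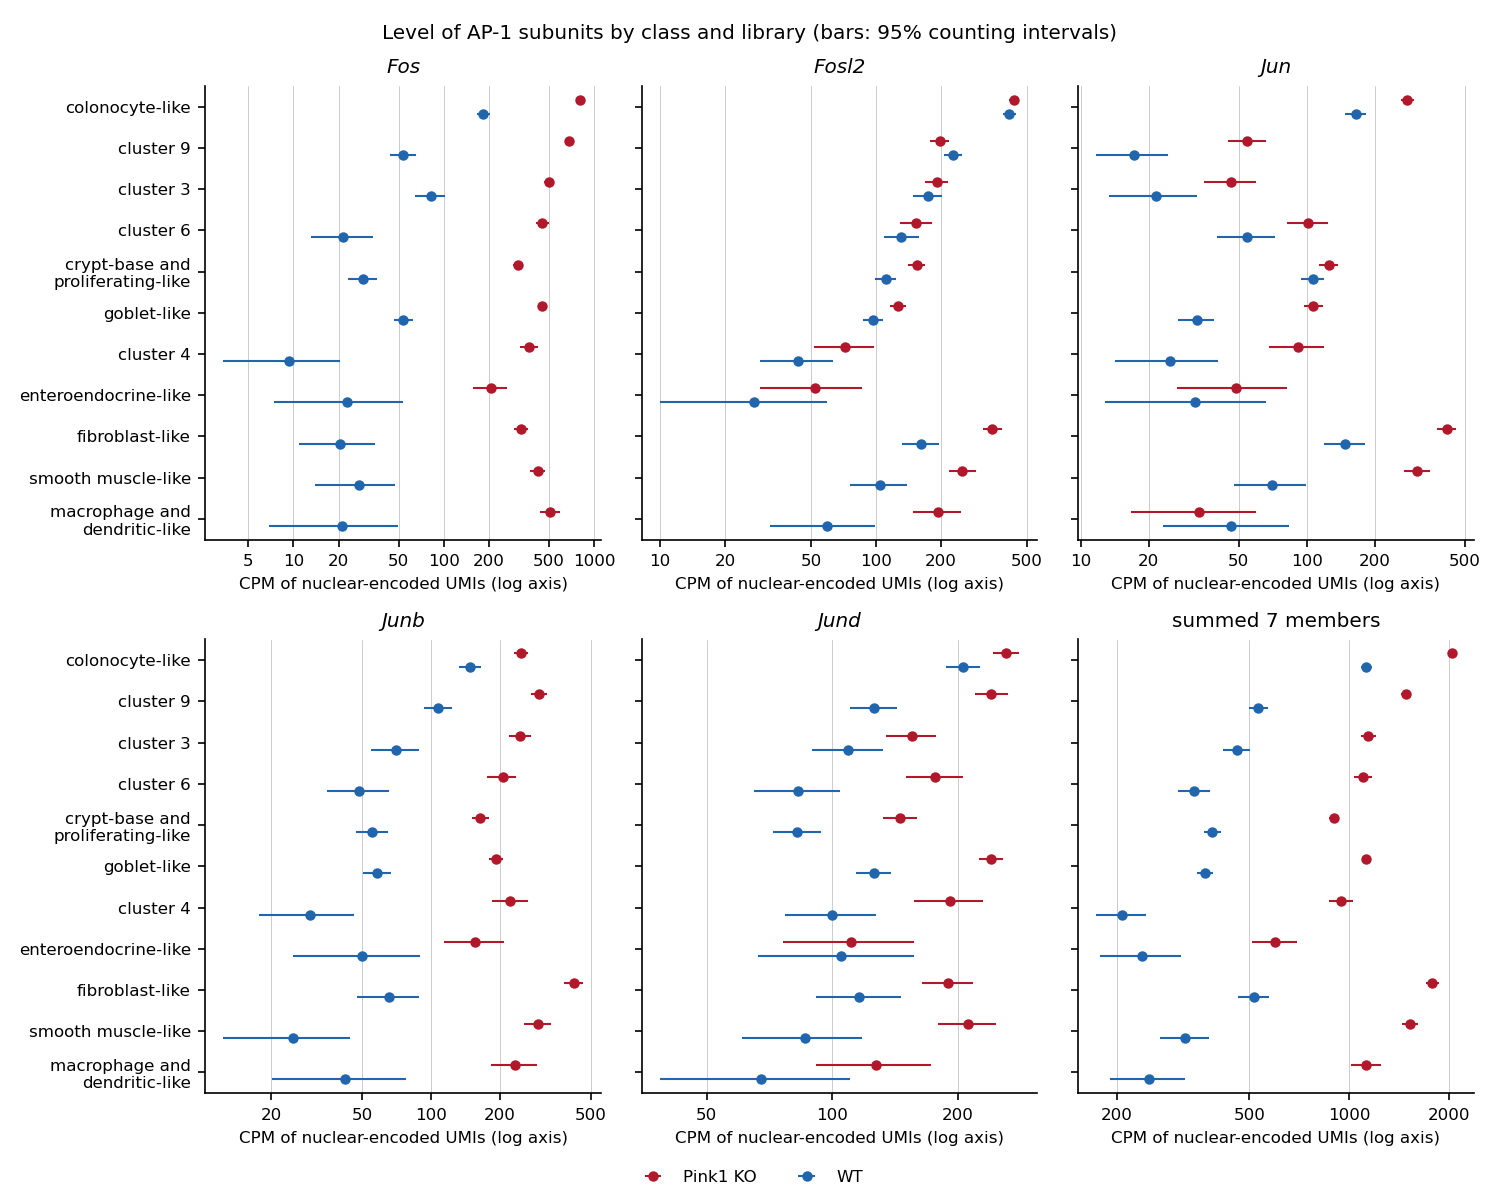
Level of Fos, Fosl2, Jun, Junb, Jund and the summed 7 members in CPM on log axes, with classes down the page, points for the Pink1 KO library (red) and the WT library (blue) and bars for exact Poisson 95% intervals. Fos separates the libraries in every class shown, from 804 against 183 CPM in colonocyte-like nuclei to 369 against 9.34 CPM in cluster 4, while Fosl2 of colonocyte-like nuclei nearly coincides at 434 and 414 CPM.

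Fosb, a close relative of Fos, had 248 UMIs (13.4 CPM) in the Pink1 KO library and 41 UMIs (2.72 CPM) in the WT library, a ratio of 4.92 (3.52 to 7.02). In the Pink1 KO library it was highest in fibroblast-like nuclei, which stood apart from the next class by counting error. They had 87 UMIs (79.6 CPM) in Pink1 KO and 2 UMIs (3.14 CPM) in WT, a ratio of 25.4 (6.81 to 213). The 87 UMIs came from 34 of 772 nuclei, and the 1% of nuclei with most Fosb held 50.6% of them, so few nuclei carry the class value. That ratio was 13.8 without doublet removal, 43.8 with coarser clusters and 46.1 without the nucleus of each library with most Fosb. Within the class, cluster 0, led by Bmp4, Pdgfra and Bmp5, held 75 of these UMIs in Pink1 KO and 1 in WT. Smooth muscle-like nuclei had 31 Fosb UMIs in Pink1 KO and 4 in WT, and goblet-like nuclei 45 and 3. Cluster 9 had 22 and 1, colonocyte-like nuclei 24 and 11, and the macrophage and dendritic-like class 10 and 3. Crypt-base and proliferating-like nuclei did not share this direction, with 6 UMIs in Pink1 KO and 8 in WT.

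Fosl1, which encodes Fra-1, was barely detected. It had 21 UMIs (1.13 CPM) in the Pink1 KO library and 16 UMIs (1.06 CPM) in the WT library, a ratio of 1.07 (0.531 to 2.19), and was under the 50 UMIs asked of a member. Colonocyte-like nuclei held 13 of these UMIs in Pink1 KO and 11 in WT. A difference in Fosl1 was not detectable at this depth.

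Fosl2, which encodes Fra-2, had 3878 UMIs (209 CPM) in the Pink1 KO library and 2500 UMIs (166 CPM) in the WT library, a ratio of 1.26 (1.20 to 1.33), and was the measured member that stayed under 1.5-fold. It was highest in colonocyte-like nuclei of both libraries, apart from the next class in each. There it had 434 CPM in Pink1 KO and 414 CPM in WT, a ratio of 1.05 (0.962 to 1.14), in the same nuclei in which Fos differed 4.40-fold. Cluster 9 had 197 CPM in Pink1 KO and 228 CPM in WT, a ratio of 0.866 (0.752 to 0.996). Among the other epithelial classes the ratio was 1.10 in cluster 3, 1.17 in cluster 6, 1.30 (1.14 to 1.5) in goblet-like nuclei and 1.39 (1.20 to 1.61) in crypt-base and proliferating-like nuclei, and the epithelium as a whole had 1.17 (1.11 to 1.24). Cluster 4, with 41 UMIs (71.8 CPM) in Pink1 KO and 28 UMIs (43.6 CPM) in WT, was the measured epithelial class past 1.5-fold, at 1.65 (0.994 to 2.76). Enteroendocrine-like nuclei had 15 and 6 UMIs, a ratio of 1.90 (0.698 to 5.99).

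In stroma and muscle Fosl2 had a ratio of 2.08 (1.75 to 2.49), and this interval did not overlap that of the epithelium, although the difference between genotypes in the 2 compartments has no replicate behind it. Fibroblast-like nuclei had 345 CPM in Pink1 KO and 162 CPM in WT, a ratio of 2.13 (1.71 to 2.68). Smooth muscle-like nuclei had 251 and 104 CPM, a ratio of 2.42 (1.74 to 3.41). The macrophage and dendritic-like class had 193 and 59.1 CPM, a ratio of 3.27 (1.82 to 6.32). Its WT level rests on 14 UMIs, with an interval of 32.3 to 99.2 CPM. That interval includes the 43.5 CPM that free RNA would give by the Muc2 measure described further on. In enteric glia-like nuclei the counts were 4 in Pink1 KO and 10 in WT, a ratio of 0.328 (0.0752 to 1.14). Over glia-like and neuron-like nuclei together they were 5 and 18, a ratio of 0.299 (0.0867 to 0.835). Of the 18 WT UMIs, 6 came from 1 neuron-like nucleus, and counting intervals do not cover such clumping. Neuron-like nuclei were only 4 in Pink1 KO and 17 in WT, with a ratio of 0.517 (0.0116 to 3.85). A lower Fosl2 in the Pink1 KO enteric nervous system is therefore not read from these counts. The class led by Sfrp4, Kcnn3 and Rgs5 had 21 and 15 UMIs, a ratio of 0.776 (0.381 to 1.62).

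Jun, whose protein is phosphorylated by the kinases Mapk8 and Mapk9, had 2833 UMIs (153 CPM) in the Pink1 KO library and 1071 UMIs (71.0 CPM) in the WT library, a ratio of 2.15 (2.00 to 2.31). In Pink1 KO nuclei it was highest in fibroblast-like nuclei at 415 CPM, apart from the next, followed by smooth muscle-like nuclei at 308 CPM and colonocyte-like nuclei at 278 CPM, which overlapped. In WT nuclei colonocyte-like nuclei at 165 CPM and fibroblast-like nuclei at 148 CPM overlapped at the top. The fibroblast-like ratio was 2.82 (2.25 to 3.55), and in smooth muscle-like nuclei, with 308 CPM in Pink1 KO and 70.1 CPM in WT, it was 4.40 (3.01 to 6.62).

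Within the epithelium the size of the Jun ratio did not follow that of the Fos ratio. Crypt-base and proliferating-like nuclei had 125 CPM of Jun in Pink1 KO and 106 CPM in WT, a ratio of 1.18 (1.01 to 1.38), where Fos differed 10.7-fold. Goblet-like nuclei had 107 and 32.5 CPM, a ratio of 3.30 (2.68 to 4.10), colonocyte-like nuclei a ratio of 1.69 (1.49 to 1.92), and cluster 9 54.5 and 17.2 CPM, a ratio of 3.16. Jun was also higher in Pink1 KO in cluster 3 (2.15, 1.29 to 3.73), cluster 6 (1.86, 1.30 to 2.69) and cluster 4 (3.65, 2.05 to 6.86). Cluster 19, led by the proliferation genes Top2a and Mki67, had a Jun ratio of 1.08, and cluster 5, led by the stem cell genes Smoc2 and Lgr5, one of 1.16. The third crypt cluster, 15, led by Hoxb8 and Dmbt1, was past 1.5-fold, with 115 Jun UMIs (103 CPM) in Pink1 KO and 58 UMIs (66.2 CPM) in WT, a ratio of 1.55 (1.12 to 2.17). In macrophage and dendritic-like nuclei Jun was at 11 UMIs in each library, a ratio of 0.716 (0.281 to 1.82), and over all immune-like nuclei the ratio was 0.767 (0.357 to 1.63). A difference in Jun of immune-like nuclei was not detectable at this depth, although Fos in macrophage and dendritic-like nuclei differed 24.2-fold.

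Junb, whose protein often restrains Jun at shared promoters, had 4213 UMIs (227 CPM) in the Pink1 KO library and 1115 UMIs (74.0 CPM) in the WT library, a ratio of 3.07 (2.88 to 3.29). Its largest ratio among the 6 largest named classes was in smooth muscle-like nuclei, with 223 UMIs (294 CPM) in Pink1 KO and 11 UMIs (24.9 CPM) in WT, a ratio of 11.8 (6.47 to 24.0) that was 6.26 in thinned nuclei. Fibroblast-like nuclei had 461 UMIs (422 CPM) and 42 UMIs (65.9 CPM), a ratio of 6.40 (4.66 to 9.0) that was 12.4 in thinned nuclei. Fibroblast-like nuclei thus held the highest Junb level of the Pink1 KO library, apart from the next, while in the WT library colonocyte-like nuclei at 149 CPM were highest and apart. Macrophage and dendritic-like nuclei had 77 UMIs (233 CPM) in Pink1 KO and 10 UMIs (42.2 CPM) in WT, a ratio of 5.51 (2.84 to 11.9).

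In the epithelium Junb ratios were lower, at 2.76 over all its nuclei against 7.20 over stroma and muscle. Colonocyte-like nuclei had 248 CPM in Pink1 KO and 149 CPM in WT, a ratio of 1.67 (1.46 to 1.90). Goblet-like nuclei stood at 193 and 58.3 CPM, 3.31-fold apart (2.84 to 3.88), and crypt-base and proliferating-like nuclei, at 165 and 55.6 CPM, were 2.98-fold apart (2.48 to 3.58). The goblet-like ratio was between 2.74 and 4.01 over 13 settings and moved beyond its counting interval in 5 of them. That class also changed size with the settings, from 2103 Pink1 KO nuclei as reported to 1142 at a clustering resolution of 2. The unnamed clusters ran from 2.76 in cluster 9 and 3.50 in cluster 3 to 4.22 in cluster 6 and 7.51 (4.62 to 12.9) in cluster 4.

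Jund, the member made most steadily in many cells, had 3769 UMIs (203 CPM) in the Pink1 KO library and 1826 UMIs (121 CPM) in the WT library, a ratio of 1.68 (1.59 to 1.78). Colonocyte-like nuclei had 261 CPM in Pink1 KO and 206 CPM in WT, a ratio of 1.27 (1.13 to 1.43), and goblet-like nuclei 240 and 126 CPM, a ratio of 1.91. The colonocyte-like value pools clusters that differed. Cluster 14 had 457 CPM in Pink1 KO and 236 CPM in WT, a ratio of 1.93 (1.63 to 2.29). Cluster 1 had a ratio of 0.980 (0.791 to 1.22) and cluster 7 one of 1.18 (0.899 to 1.55). Crypt-base and proliferating-like nuclei had a ratio of 1.76, fibroblast-like nuclei one of 1.63 with 189 and 116 CPM, smooth muscle-like nuclei one of 2.45 with 211 and 85.9 CPM, and the macrophage and dendritic-like class one of 1.88 (1.03 to 3.58). Plasma-like nuclei ran the other way, with 20 Jund UMIs (207 CPM) in Pink1 KO and 25 UMIs (483 CPM) in WT, a ratio of 0.430 (0.226 to 0.806). Lymphatic endothelium-like nuclei (22 and 23 UMIs, ratio 0.710, 0.377 to 1.33) and enteroendocrine-like nuclei (32 and 23 UMIs, ratio 1.06, 0.601 to 1.90) had intervals that included 1. The low count of plasma-like nuclei, 86 in Pink1 KO and 39 in WT, limits this value, which was singled out after it was seen.

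**Figure D2:**
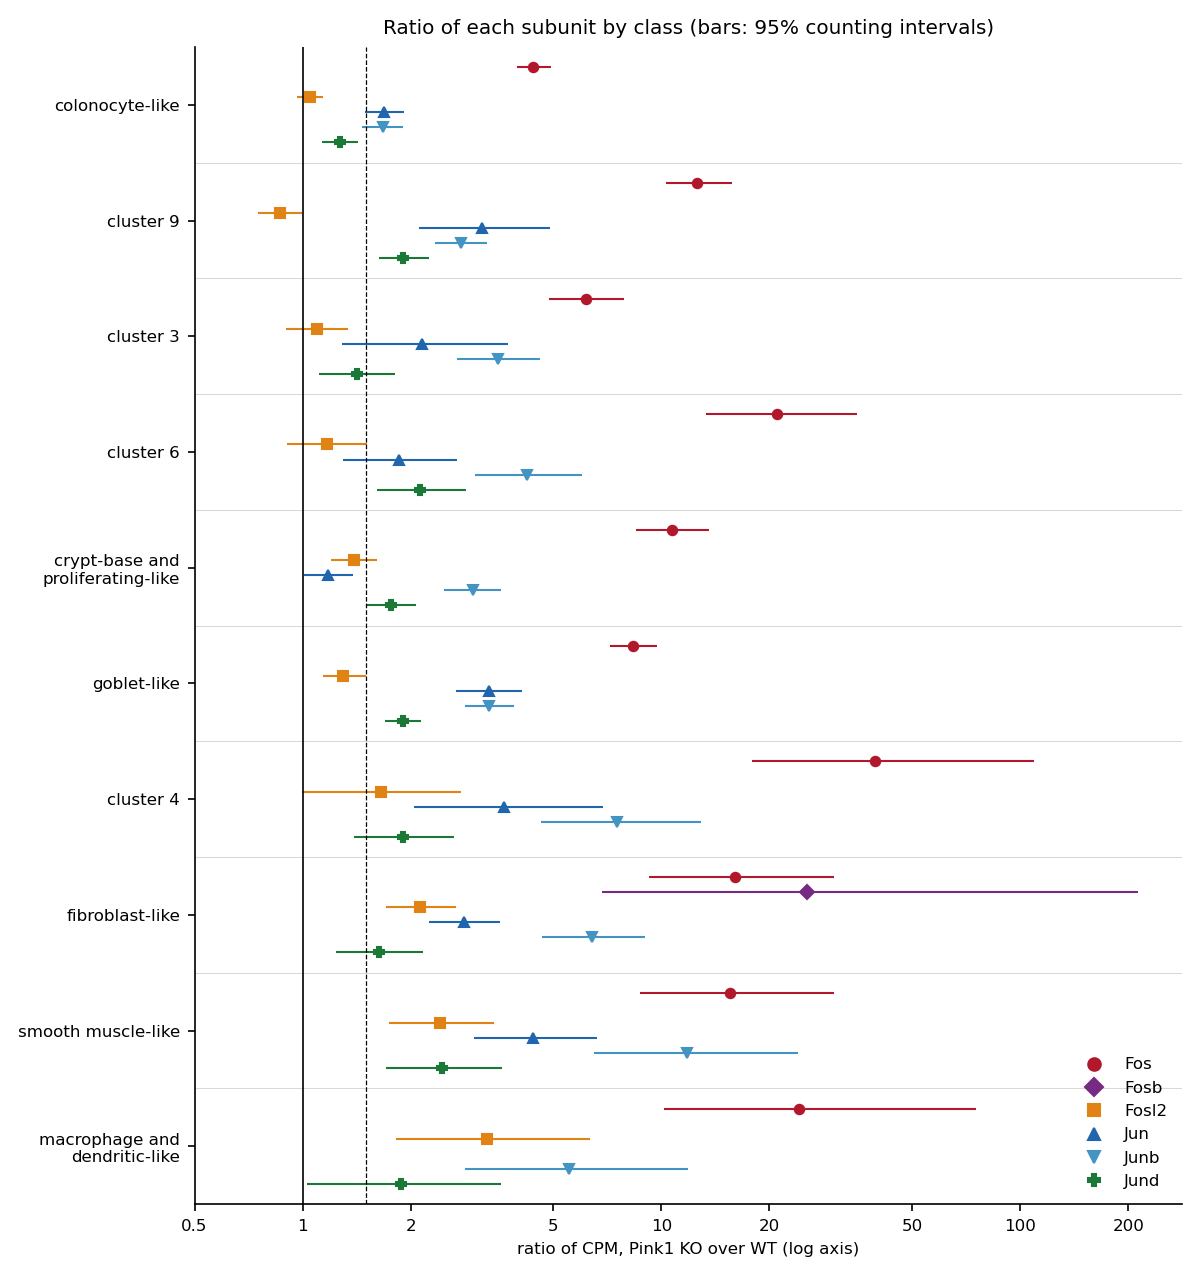
Ratio of CPM, Pink1 KO over WT, for each member with at least 50 UMIs in a class, on a log axis with exact 95% counting intervals; the solid line marks 1 and the dashed line 1.5. Fos lies farthest right in all classes shown but the fibroblast-like one, where Fosb lies at 25.4, and Fosl2 of colonocyte-like nuclei lies at 1.05, while in fibroblast-like and smooth muscle-like nuclei all members shown lie beyond 1.5.

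Counted by class, fibroblast-like nuclei had 6 of 6 measured members at least 1.5-fold higher in Pink1 KO, where 8.07% of all genes measured in that class were. Smooth muscle-like nuclei had 5 of 5 (8.74% of all genes), macrophage and dendritic-like nuclei 4 of 4 (11.5%), goblet-like nuclei 4 of 5 (4.49%), crypt-base and proliferating-like nuclei 3 of 5 (3.83%) and colonocyte-like nuclei 3 of 5 (5.86%). The unnamed cluster 9 had 4 of 5 (7.29%), cluster 3 had 3 of 5 (6.95%), cluster 6 had 4 of 5 (5.86%) and cluster 4 had 5 of 5 (7.23%). The epithelium as a whole had 5 of 6 (3.79%) and stroma and muscle 6 of 6 (6.43%). No measured member was 1.5-fold lower in any of these classes. The share of all genes that was lower came to 7.28% in goblet-like, 4.91% in crypt-base and proliferating-like, 8.98% in colonocyte-like, 5.97% in fibroblast-like, 5.60% in smooth muscle-like and 7.45% in macrophage and dendritic-like nuclei. In clusters 9, 3, 6 and 4 it was 6.25%, 6.06%, 5.88% and 7.07%, and in the epithelium and in stroma and muscle 6.32% and 5.18%. The measured members below 1.5-fold were Fosl2 in goblet-like, crypt-base and proliferating-like and colonocyte-like nuclei and in clusters 9, 3 and 6, Jun in crypt-base and proliferating-like nuclei, and Jund in colonocyte-like nuclei and cluster 3. At a fold of 2 the colonocyte-like count was 1, and in nuclei thinned to 500 UMIs the macrophage and dendritic-like count was 1, with fewer members left at 50 UMIs. The 50 UMIs are summed over both libraries, so a member can enter through the library in which it is high. Fosb entered in fibroblast-like nuclei with 87 UMIs in Pink1 KO and 2 in WT. Jun in macrophage and dendritic-like nuclei, with 11 UMIs in each library and a ratio of 0.716, was left out. Nothing is read from these counts of members.

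Fos also varied between the clusters inside a class. Among goblet-like nuclei, cluster 11, led by Fcgbp, Clca1 and Zg16, had 837 CPM of Fos in Pink1 KO and 129 CPM in WT, a ratio of 6.47. Cluster 2, led by Plet1, had 295 and 19.5 CPM, a ratio of 15.1, and cluster 10, led by Reg4, Mptx1 and Spink4, had 188 and 22.6 CPM, a ratio of 8.32. Fcgbp, Clca1 and Zg16 are secreted products of mature goblet cells, and the cluster led by them had the highest Fos of the 3 in both libraries. Junb had the same top cluster, with 287 CPM in Pink1 KO and 120 CPM in WT in cluster 11, a ratio of 2.39.

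Among colonocyte-like nuclei, cluster 14, led by Slc37a2, Car4 and Aqp8, had 1204 CPM of Fos in Pink1 KO and 186 CPM in WT, a ratio of 6.46. Cluster 1, led by Slc9a3 and Guca2a, had 783 and 212 CPM, a ratio of 3.69, and cluster 7, led by Slc10a2, the ileal-type bile acid transporter, had 503 and 140 CPM, a ratio of 3.59. Cluster 14 thus had the highest Fos of the 3 in Pink1 KO nuclei, while in WT nuclei its interval (160 to 216 CPM) overlapped that of cluster 1 (179 to 251 CPM). It held 400 of the Pink1 KO and 464 of the WT colonocyte-like nuclei, against 706 and 343 in cluster 1 and 584 and 283 in cluster 7, so the class as a whole weighs the 3 clusters differently in the 2 libraries. Junb in cluster 7 had 157 CPM in Pink1 KO and 129 CPM in WT, a ratio of 1.22, the lowest of the 3.

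Among crypt-base and proliferating-like nuclei, cluster 5 had 274 CPM of Fos in Pink1 KO and 21.1 CPM in WT, a ratio of 13, cluster 19 had 306 and 27.9 CPM, a ratio of 11, and cluster 15 had 336 and 37.7 CPM, a ratio of 8.91. Among smooth muscle-like nuclei, cluster 8, led by the contractile genes Myh11, Acta2 and Des, had 466 and 26.6 CPM of Fos, a ratio of 17.5, and 326 and 29.3 CPM of Junb, a ratio of 11.1. Cluster 13, led by Hhip and Sncaip, had 32 Fos UMIs in Pink1 KO and 2 in WT, and differed from cluster 8 in its high Fosl2, at 563 CPM in Pink1 KO and 343 CPM in WT, a ratio of 1.64. Fibroblast-like cluster 0 had 332 and 22.0 CPM of Fos, a ratio of 15.1, and cluster 25, led by Pi16 and Car3, 34 and 1 UMIs. For Fosl2, cluster 25 had 16 and 9 UMIs, a ratio of 1.01 (0.421 to 2.60), against 2.18 (1.73 to 2.77) in cluster 0. For Jun it had 18 and 10 UMIs, a ratio of 1.02 (0.448 to 2.48), against 2.92 (2.30 to 3.74) in cluster 0. The higher Fos level was thus present in every cluster of these classes for which values are given.

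The number of members seen in the same nucleus was also higher in the Pink1 KO library. With nuclei thinned to 500 UMIs, 42.0% of Pink1 KO and 19.9% of WT nuclei held a UMI of at least 1 member, and 1.79% and 0.230% held 3 or more. Without thinning, 72.7% and 45.8% held at least 1. Among fibroblast-like nuclei the shares were 52.8% in Pink1 KO and 17.6% in WT, and smooth muscle-like nuclei had 48.1% and 16.0%. Macrophage and dendritic-like nuclei had 35.3% and 7.83%, goblet-like nuclei 38.8% and 15.6%, crypt-base and proliferating-like nuclei 34.4% and 16.8%, and colonocyte-like nuclei 58.6% and 39.5%.

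**Figure D3:**
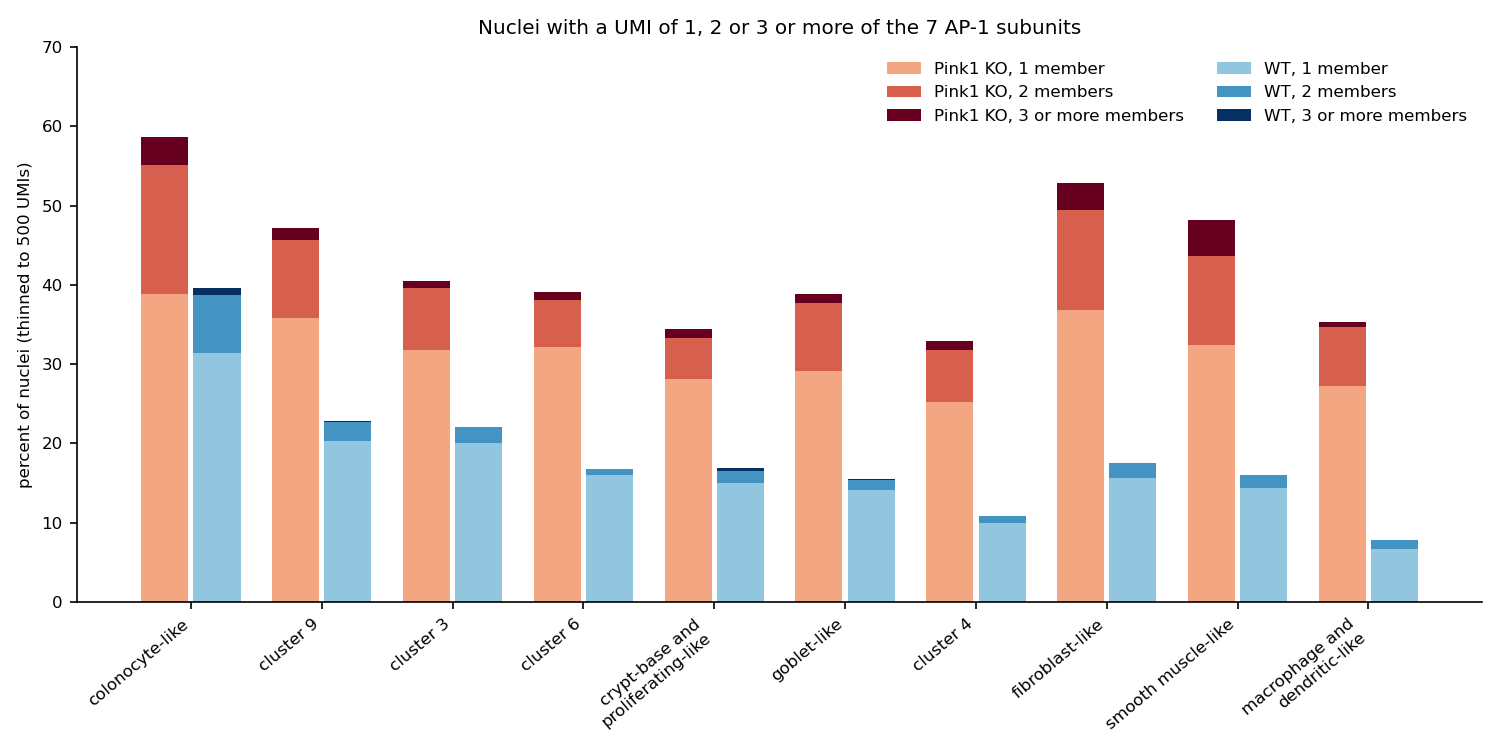
Percent of nuclei, each thinned to 500 UMIs, with UMIs of 1, 2 or 3 or more of the 7 members, as stacked bars for Pink1 KO (reds) and WT (blues) in each class. The Pink1 KO bar is the taller in every class, from 58.6% against 39.5% in colonocyte-like nuclei to 35.3% against 7.83% in macrophage and dendritic-like nuclei.

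Within the Pink1 KO library, nuclei with Fos were compared with nuclei without it, in thinned counts and as a description of single nuclei from 1 library. Junb was seen in 21.6% of 111 Fos-positive fibroblast-like nuclei (14.4 to 30.4) and in 13.2% of Fos-negative ones, and Jun in 17.1% and 17.2%. Fosb was seen in 8.11% of the Fos-positive (3.77 to 14.8) and in 1.36% of the Fos-negative fibroblast-like nuclei (0.624 to 2.57), intervals that did not overlap. In goblet-like nuclei Junb was seen in 11.9% of Fos-positive and 10.0% of Fos-negative nuclei, and Jund in 15.2% (11.7 to 19.4) and 9.36% (8.03 to 10.8). In colonocyte-like nuclei Fosl2 was seen in 19.7% of Fos-positive and 19.3% of Fos-negative nuclei. Over all Pink1 KO nuclei each of the 5 partners was seen more often beside Fos, with intervals apart: Junb in 14.0% and 9.65%, Jund in 11.5% and 8.35%, Fosl2 in 12.1% and 9.22%, Jun in 8.56% and 6.57%, and Fosb in 1.42% and 0.445%. Both all nuclei and a class pool clusters that differ in both genes: goblet-like cluster 11 had 837 CPM of Fos and 353 CPM of Jund in Pink1 KO, and cluster 2 had 295 and 187 CPM. The pairs named by class were singled out after their values were seen.

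Free RNA in droplets can add UMIs of an abundant transcript to nuclei that do not make it. Muc2, the gel-forming mucin of goblet cells, gave the size of this: its CPM in fibroblast-like nuclei was 14.2% of its CPM over all nuclei in the Pink1 KO library and 9.81% in the WT library, and those of the macrophage and dendritic-like class 15.8% and 26.2%. At those shares Fos would stand at 69.1 CPM in Pink1 KO and 5.97 CPM in WT fibroblast-like nuclei, where 326 and 20.4 CPM were measured. In smooth muscle-like nuclei the corresponding levels were 47.4 and 7.61 CPM, where 420 and 27.1 CPM were measured. In macrophage and dendritic-like nuclei they were 76.7 and 16.0 CPM, where 511 and 21.1 CPM were measured, so the WT value there was near the free RNA level. In Pink1 KO, lymphatic endothelium-like nuclei had 118 CPM (68.6 to 189) against 91.9 CPM at the Muc2 share. T and innate lymphoid-like nuclei had 69.5 CPM (22.6 to 162) against 126 CPM. Both intervals include the free RNA level, so expression cannot be told apart from background in these 2 classes by this measure. At least 1 Fos UMI was seen in 5.15% of those Pink1 KO lymphoid-like nuclei (1.69 to 11.6), at a median of 692 UMIs, against 29.4% of Pink1 KO fibroblast-like nuclei (26.2 to 32.8), at a median of 1255 UMIs.

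Junb stood further above that level in the stroma, with 422 CPM measured in Pink1 KO fibroblast-like nuclei where the Muc2 share gives 32.4 CPM, and 294 CPM in smooth muscle-like nuclei where it gives 22.2 CPM. In macrophage and dendritic-like nuclei the Pink1 KO values were 233 CPM measured and 36.0 CPM at that share. Fosb in Pink1 KO fibroblast-like nuclei was at 79.6 CPM, where the share gives 1.91 CPM.

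**Figure D4:**
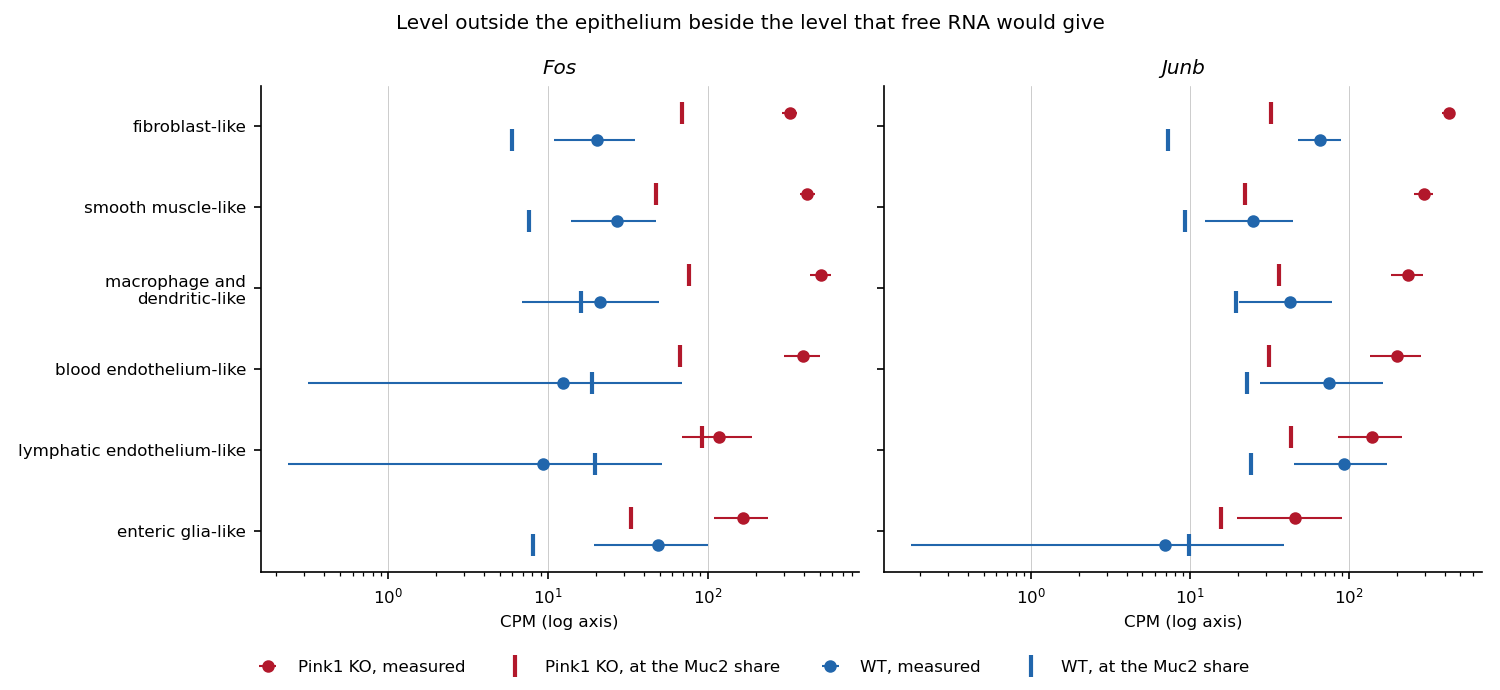
Measured CPM of Fos and Junb outside the epithelium (points with exact Poisson 95% intervals) beside the CPM each would have at the share seen for Muc2 (ticks), on log axes, for Pink1 KO (red) and WT (blue). For the fibroblast-like, smooth muscle-like and macrophage classes the Pink1 KO points lie well to the right of their ticks, 326 against 69.1 CPM for Fos in fibroblast-like nuclei, while WT Fos in macrophage and dendritic-like nuclei lies close to its tick.

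Genes around AP-1 were taken from 4 lists by role. Among 22 measured kinases and factors upstream of AP-1, such as the kinase Mapk8 (ratio 0.994) and the ETS factor Elk4 (1.02), 0 were 1.5-fold higher or lower over all nuclei, where 5.24% of all genes were higher and 5.81% lower. The median log2 ratio of that list was 0.06, against −0.02 for all genes tested. Among 17 measured bZIP partners and competitors 4 were 1.5-fold higher (5.24% of all genes) and 0 lower, with a median of 0.13. They included Atf3, a stress-induced partner of Jun, with 23.4 CPM in Pink1 KO and 5.04 CPM in WT (ratio 4.63, 3.62 to 5.99), Jdp2 (3.07 and 1.53 CPM, 2.02), which encodes a repressor that pairs with Jun, and Maff (15.5 and 7.96 CPM, 1.95). The more abundant partners Atf4 (1.10), Creb1 (0.931) and Nfe2l2 (0.947) stayed near 1. The higher partners were named after their values were seen.

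By class, upstream genes at least 1.5-fold higher were 3 of 14 measured in fibroblast-like nuclei (Mapk3, Map2k2 and Map2k7; 8.07% of all genes), 2 of 10 in smooth muscle-like nuclei (Mapk9 and Elk4; 8.74%) and 2 of 19 in crypt-base and proliferating-like nuclei (Mapk7 and Mapkapk2; 3.83%). They were 0 of 20 in goblet-like (4.49%), 0 of 18 in colonocyte-like (5.86%) and 0 of 6 in macrophage and dendritic-like nuclei (11.5%), where Elk4 was lower at a ratio of 0.648 (0.379 to 1.11). Against the same shares of all genes, partners at least 1.5-fold higher were 3 of 12 in goblet-like nuclei, 1 of 13 in colonocyte-like nuclei and 0 of 9 in crypt-base and proliferating-like nuclei. In fibroblast-like nuclei they were 2 of 11 (Atf4 and Mafk), in smooth muscle-like nuclei 1 of 7 (Atf4), and the macrophage and dendritic-like class had 2 of 10, with Bach1 among them.

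Atf3 had 22.2 CPM in Pink1 KO and 2.30 CPM in WT goblet-like nuclei, a ratio of 9.65 (4.69 to 23.0), and 69.8 and 18.2 CPM in colonocyte-like nuclei, a ratio of 3.84 (2.72 to 5.55). Atf4, the factor of the integrated stress response, had 232 and 121 CPM in fibroblast-like nuclei, a ratio of 1.92 (1.48 to 2.52), and 153 and 90.4 CPM in smooth muscle-like nuclei, a ratio of 1.69 (1.17 to 2.48).

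Of 14 genes for decay of AU-rich mRNA and turnover of AP-1 proteins, 2 were 1.5-fold higher over all nuclei (5.24% of all genes) and 0 lower, with a median log2 ratio of 0.02. Zfp36 encodes tristetraprolin, which binds AU-rich elements and speeds the decay of their mRNAs, Fos among them. It had 188 CPM in Pink1 KO and 62.6 CPM in WT, a ratio of 3.0 (2.79 to 3.23), and was at least 1.5-fold higher in all 6 of the largest named classes. Among those classes its ratio was largest in the 2 in which that of Junb was, at 13.2 in fibroblast-like nuclei (289 and 22.0 CPM) and 8.66 in smooth muscle-like nuclei (294 and 33.9 CPM), and lower in goblet-like (2.76), crypt-base and proliferating-like (2.21) and colonocyte-like nuclei (2.25). Its relative Zfp36l2 had 450 and 249 CPM over all nuclei, a ratio of 1.81. Zfp36l1 split by class, with 1144 CPM in Pink1 KO and 493 CPM in WT fibroblast-like nuclei, a ratio of 2.32, but 46.4 and 87.6 CPM in colonocyte-like nuclei, a ratio of 0.530 (0.422 to 0.663). Cop1, an E3 ligase that targets Jun, had a ratio of 1.01 and Hnrnpd, an AU-rich element binding protein, one of 1.02.

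Among 13 measured textbook AP-1 targets, 6 were 1.5-fold higher over all nuclei (5.24% of all genes) and 0 lower (5.81%), with a median log2 ratio of 0.41. The direction was not the same in every class: in colonocyte-like nuclei 1 of 5 was higher (5.86% of all genes) and Cd44, the hyaluronan receptor, was lower, with 8.01 CPM in Pink1 KO and 14.5 CPM in WT, a ratio of 0.555 (0.311 to 0.976). In macrophage and dendritic-like nuclei 1 of 5 was higher (11.5%) and the collagenase gene Mmp13 was lower, with 124 and 190 CPM, a ratio of 0.652 (0.416 to 1.02). Higher were 3 of 7 in goblet-like (4.49%), 2 of 6 in crypt-base and proliferating-like (3.83%), 3 of 7 in fibroblast-like (8.07%) and 1 of 3 in smooth muscle-like nuclei (8.74%), with 0 lower. Hbegf, a ligand of the EGF receptor, had 225 CPM in Pink1 KO and 35.6 CPM in WT, a ratio of 6.32 (5.78 to 6.93). In colonocyte-like nuclei it had 571 and 137 CPM (4.18), in crypt-base and proliferating-like nuclei 186 and 21.7 CPM (8.57), and in goblet-like nuclei 46.1 and 4.02 CPM (11.5). Ptgs2, the inducible prostaglandin synthase, had 526 and 273 CPM in fibroblast-like nuclei, a ratio of 1.93 (1.62 to 2.30), and Vim 516 and 239 CPM there, a ratio of 2.16. The others were Lif (6.85 and 2.45 CPM over all nuclei, 2.79), Plau (6.04 and 3.25 CPM, 1.86) and Plaur (5.18 and 3.12 CPM, 1.66). Ptgs2 and Vim lie mostly in stromal nuclei, which made up a larger share of Pink1 KO nuclei (772 of 10966 Pink1 KO and 410 of 8256 WT nuclei were fibroblast-like), so their ratios over all nuclei also carry class sizes. Targets that stayed within 1.5-fold over all nuclei included Cd44 (0.993), Ezr (1.25) and Vegfa (1.33). Hbegf, Atf3, Zfp36, Zfp36l1, Maff and Mafk are themselves immediate early genes.

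**Figure D5:**
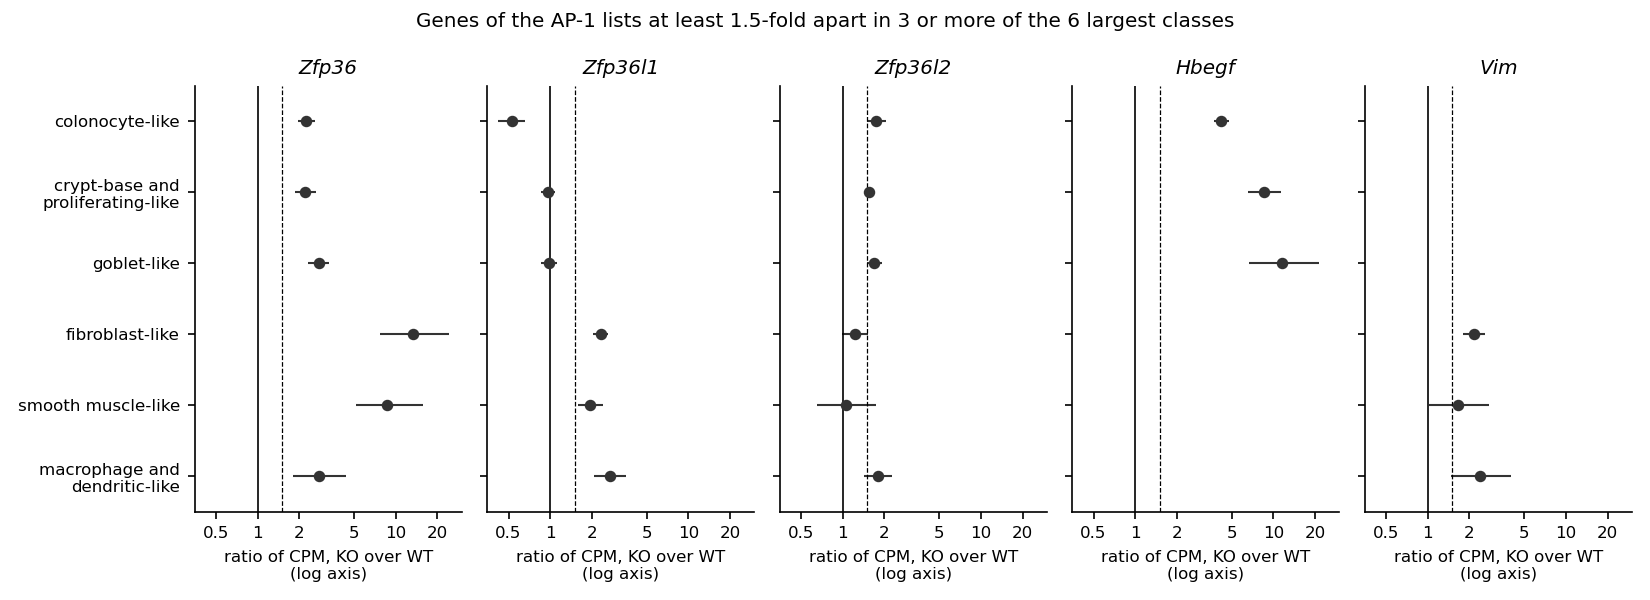
Ratio of CPM, Pink1 KO over WT, with exact 95% counting intervals on log axes, for the genes of the 4 lists at least 1.5-fold apart in 3 or more of the 6 largest named classes; solid lines mark 1 and dashed lines 1.5, and a class with under 50 UMIs has no point. Zfp36 lies beyond 1.5 in all 6 classes, while Zfp36l1 lies at 0.530 in colonocyte-like and 2.32 in fibroblast-like nuclei.

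Genes with the most similar pattern were sought over 14 points, 7 classes in each of the 2 libraries, as Pearson's r of log2(CPM + 1) among 8644 genes. The points of a library share its depth and its free RNA, so r is a description only. Nearest to Fos were Txnip (r = 0.941), Ddx3x (0.890) and Sgk1 (0.870), and nearest to Junb were Txnip (0.880), Btg2 (0.864) and Ddx3x (0.849). Among the nearest genes of Jun were Cd151 (0.856) and Ereg (0.833), and among those of Jund were Cdkn1a (0.915) and Ifrd1 (0.884). Fosl2 was nearest to Gapdh (0.927), Pdcl3 (0.901) and Stk24 (0.880). Some of these genes had few UMIs at some points. In macrophage and dendritic-like nuclei Gapdh had 7 UMIs in Pink1 KO and 4 in WT, Pdcl3 10 and 4, Cd151 4 and 3, and Ereg 1 and 0. Txnip, a thioredoxin-binding protein regulated by glucose, was at 1664 CPM in Pink1 KO and 473 CPM in WT goblet-like nuclei, a ratio of 3.52, and at 1794 and 857 CPM in colonocyte-like nuclei, a ratio of 2.09. Fos and Junb differed between the libraries in most of these classes, so genes with a high r to them are bound to differ between the libraries too.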

How the data were processed

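Single-nucleus RNA was measured with 10x 3′ Next GEM v3.1 chemistry in 2 colon libraries, 1 per genotype. The deposited values are UMI counts, one for each barcode and gene. Per the file headers the authors used Cell Ranger 6.1.2, and the submitters' processing notes name mm10 (GRCm38). The counting of introns and the strand setting were not given in the sources used here. In all there were 12230 Pink1 KO barcodes with 22446326 UMIs and 8924 WT barcodes with 16997995 UMIs, and none was under 500 UMIs.

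Barcodes with at least 500 UMIs, at least 300 genes and at most 10% mitochondrial UMIs were kept (12146 Pink1 KO and 8888 WT). The barcodes with the highest Scrublet scores were then removed as doublets at 0.8% per 1000 barcodes, 1180 (9.72%) of Pink1 KO and 632 (7.11%) of WT; Scrublet's own threshold marked 914 and 376. The libraries shared 22 kept barcodes. Both libraries were clustered together with scanpy 1.11.5 and leidenalg 0.10.2 (Python 3.11.15) on 2000 variable genes, 30 components, 20 neighbours and resolution 1. Immediate early, mitochondrial and Y-linked genes, Xist and Pink1 were left out of the variable genes. Clusters were named only from lists of markers, and inflammatory genes were among the leading genes of some named clusters (Ptgs2 and Ereg in the fibroblast-like cluster 0, Saa1 in the colonocyte-like cluster 14).

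UMIs were summed over the nuclei of a class and divided by its nuclear-encoded UMIs. With 1 library per genotype there is no test between genotypes and no p-value. Counts have exact Poisson intervals, ratios exact conditional binomial ones and shares exact Clopper-Pearson ones (SciPy 1.17.1, 95%). Only the ratio intervals were checked on simulated data, with Poisson counts that hold no clumping of UMIs in few nuclei. All of these intervals cover counting error only. A gene was measured in a class at 50 UMIs over both libraries, and 1.5-fold was the size named. Thinning to 500 UMIs left out 0 nuclei.

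The members and lists were chosen with earlier results of these data known. Named genes were the 7 members, list genes 1.5-fold apart in 3 of the 6 largest named classes, up to 4 list genes with the most UMIs, and the 3 genes nearest to a member; other list genes past 1.5-fold were named after their values were seen. Some genes that this rule names are not reported here. The alternatives were other filters, no doublet removal, other clusterings, thinning, free RNA subtraction, other scalings, thresholds and, added after seeing the data, leaving out shared barcodes and a ratio weighted over clusters.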

Additional observations from a re-analysis of the deposited data

Results flagged for a closer look

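Fosl2 was lower in Pink1 KO than in WT nuclei in the unnamed epithelial cluster 9, with 197 and 228 CPM and a ratio of 0.866 (0.752 to 0.996). It was higher in some other classes, such as fibroblast-like nuclei at 345 and 162 CPM, a ratio of 2.13. Intervals included 1 in colonocyte-like nuclei (1.05, 0.962 to 1.14), cluster 3 (1.10, 0.901 to 1.34) and cluster 6 (1.17, 0.906 to 1.51). Some smaller classes had ratios below 1 with intervals that included 1, such as plasma-like nuclei (0.307, 0.0659 to 1.21). The difference between these classes was not tested, as there is 1 library per genotype.

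Barcodes removed by the filters or as doublets, 1264 of Pink1 KO and 668 of WT, entered none of the reported values, only the settings without doublet removal or with a looser filter. Fos in them was at 439 CPM (1652 UMIs) in Pink1 KO and 60.6 CPM (113 UMIs) in WT, a ratio of 7.25 (5.99 to 8.85). Junb in them was at 216 CPM (813 UMIs) in Pink1 KO and 83.7 CPM (156 UMIs) in WT, a ratio of 2.58 (2.17 to 3.09).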

How the results depend on the processing

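Over 16 settings, 30 member ratios in the 6 largest named classes gave 383 values, of which 370 moved by less than the counting interval of the reported ratio, 13 moved beyond it and 0 reversed a called direction. The AP-1 sum ratio over all nuclei was between 2.55 and 2.64 in the 8 settings that gave it. The number of members at least 1.5-fold higher was 1 in macrophage and dendritic-like nuclei with nuclei thinned to 500 UMIs, against 4 as reported, and 1 in colonocyte-like nuclei with a fold of 2, against 3. Thinning leaves fewer UMIs, and a higher fold asks for more. Subtracting 10% free RNA gave no value for the sum over all nuclei, since it removes a library's own profile. The median log2 ratio of all genes in a class was between −0.05 and 0.05. No paired analysis was possible because each genotype has 1 library. Precision is limited by counts outside the epithelium, where WT Fos rests on 13 UMIs or fewer in each of the macrophage and dendritic-like, fibroblast-like and smooth muscle-like classes, and by the lack of replicate libraries.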
